A study of Mus musculus with 12 samples.

Results

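The genes described here encode the adult haemoglobin of red blood cells and the enzyme that starts haem synthesis in their precursors. They are the α-globin genes Hba-a1 and Hba-a2, the β-globin genes Hbb-bs and Hbb-bt, and Alas2, and they are 5 of the 41743 genes in the deposited table. They were chosen by symbol, and each symbol was found once. The table holds RPKM values, which scale reads by transcript length and by the mapped reads of the library.

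The RNA came from the hippocampus, the cortical structure of the temporal lobe that serves memory formation. The animals were male C57Bl/6 mice aged 12 weeks. The toxicant group had 6 mice injected under the skin on weekdays for 2 weeks with a mixture of 3 compounds that models Gulf War exposures. The mixture gave 2.5 mg/kg pyridostigmine bromide and 12.5 mg/kg chlorpyrifos, which both act on cholinesterases, and 7.5 mg/kg of the insect repellent DEET. The control group had 6 mice that received vehicle, whose composition is not given in the sources used here. The tissue was taken when the exposure ended, and libraries were made from poly(A)-selected RNA. Perfusion of the animals is not mentioned in the protocol. The columns of controls 4 and 5 held identical values and were counted as 1 library, called control 4-5, which leaves 6 toxicant and 5 control libraries. The study's description says that the mice were different animals, so the p-values measure the spread between animals.

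Each haemoglobin molecule pairs α chains with β chains around haem, the iron-containing ring that binds oxygen. Red cell precursors fill with globin mRNA, and in mammals the youngest circulating red cells, the reticulocytes, still carry it after losing their nucleus. Alas2 makes the erythroid form of 5-aminolevulinate synthase, the first enzyme of haem synthesis, while the related Alas1 serves most other tissues. Globin RNA in brain tissue can come from blood in its vessels, and globin expression has also been described in neurons and glia. In bulk tissue, fewer cells of a type and less RNA per cell cannot be told apart.

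The whole reads behind the RPKM values could be recovered, since 98.48 to 98.69% of the values below 1000 reads lay within 0.05 of a whole number. Depth was 21.5 to 28.4 M reads in toxicant libraries and 25.0 to 34.9 M reads in control libraries. The share of reads on genes was 80.84 ± 2.68% in toxicant libraries (SD, n = 6) and 85.37 ± 4.58% in control libraries (SD, n = 5), with control 2 the lowest control at 78.4%. All 15 hippocampal neuron genes listed for the tissue check were above the filter on low values, and they summed to 744 to 923 RPKM in toxicant libraries and 871 to 1048 RPKM in control libraries. That filter kept 13493 genes, those averaging 0.5 RPKM or more across all 11 libraries.

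In GENCODE M21 (GRCm38), Hba-a1 lies on chromosome 11 from 32283511 to 32284465 and Hba-a2 from 32296489 to 32297298, both on the plus strand. Hbb-bs lies on chromosome 7 from 103826534 to 103828096 and Hbb-bt from 103812524 to 103813996, both on the minus strand. Alas2 lies on the X chromosome from 150547375 to 150570638 on the plus strand. The paralogs are close in sequence, which matters because 75-base single-end reads were counted on them. The main transcripts of Hba-a1 and Hba-a2 matched at 537 of 538 aligned bases, and those of Hbb-bs and Hbb-bt at 582 of 625. Of the 75-base words in the main transcript of each gene, 62.2% of those of Hba-a1 and 81.0% of those of Hba-a2 also occur in the other α gene. The shares were 64.3% for Hbb-bs and 56.6% for Hbb-bt in the other β gene. How the authors assigned such reads is not given in the sources used here, so the split between paralogs is uncertain and the sum per chain is the firmer value.

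The promoter windows show what the genes share before their RefSeq starts. The GENCODE start of each gene falls inside its window, so part of each window lies within the gene as GENCODE draws it. The 200 bases before the RefSeq start (GRCm38.p6) are printed for the more abundant α gene, both β genes and Alas2, each 5′ to 3′ on the strand of the gene. They come from chr11:32296292-32296491 for Hba-a2 (plus), chr7:103827929-103828128 for Hbb-bs (minus), chr7:103813924-103814123 for Hbb-bt (minus) and chrX:150547217-150547416 for Alas2 (plus). Capitals mark the CCAAT box, the CACCC box, the GATA motif GATAAG and the TATA-type motif ATATAA, each searched on both strands.
Hba-a2: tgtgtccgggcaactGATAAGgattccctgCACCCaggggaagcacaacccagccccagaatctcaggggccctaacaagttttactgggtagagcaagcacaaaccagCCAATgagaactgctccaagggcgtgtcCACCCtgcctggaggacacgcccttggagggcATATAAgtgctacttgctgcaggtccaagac
Hbb-bs: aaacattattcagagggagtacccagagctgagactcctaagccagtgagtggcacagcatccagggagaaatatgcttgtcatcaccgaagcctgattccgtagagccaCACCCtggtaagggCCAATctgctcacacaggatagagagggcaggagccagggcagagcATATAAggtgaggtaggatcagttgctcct
Hbb-bt: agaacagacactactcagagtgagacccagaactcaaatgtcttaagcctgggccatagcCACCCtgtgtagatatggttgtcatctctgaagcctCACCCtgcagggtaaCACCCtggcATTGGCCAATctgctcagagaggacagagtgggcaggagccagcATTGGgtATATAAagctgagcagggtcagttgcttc
Alas2: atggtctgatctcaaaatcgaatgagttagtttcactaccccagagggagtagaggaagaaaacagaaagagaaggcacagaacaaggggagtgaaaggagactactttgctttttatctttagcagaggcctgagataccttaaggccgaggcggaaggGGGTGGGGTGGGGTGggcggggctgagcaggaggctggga

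The promoter of Hba-a1, at chr11:32283472-32283671, matched that of Hba-a2 at all 197 aligned bases and holds the same motifs. The β-globin promoters matched each other at 148 of 192 aligned bases. The CCAAT box occurred in 4 of the 5 promoters, all but that of Alas2, and in 29.3% of 32851 mouse promoter windows of this length. The CACCC box, bound by Krüppel-like factors in erythroid cells, occurred in 5 of 5 and in 45.5% of all windows. The GATA motif, a form of the site bound by GATA factors, occurred in the 2 α promoters and in 5.1% of all windows. Only the form GATAAG was searched, so promoters without it may hold other forms of the site. The TATA-type motif occurred in the 4 globin promoters and in 7.3% of all windows. In the Hbb-bt promoter the CCAAT box directly follows its own reverse complement. These matches are letters only and say nothing of binding.

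The 4 globin RNAs were lower on average in toxicant hippocampi, by log2 differences of 0.37 to 0.63, but none passed the adjusted threshold. Hba-a2 had the largest log2 difference, with all 6 toxicant libraries below all 5 control libraries by a narrow margin. Hbb-bs followed, and Hba-a1 and Hbb-bt overlapped more. Alas2 RNA was low in both groups. No gene of the 13493 tested had an adjusted p under 0.05 (0%) by limma with Benjamini-Hochberg adjustment, the lowest being 0.0715, and 2737 had an unadjusted p under 0.05. Limma voom on recovered reads also called 0 genes. An exact rank-sum test called 0 as well, but with 6 against 5 libraries its smallest p is 2 of 462 splits, and too few genes reached it for any to pass the adjustment.

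Hba-a2, an α-globin gene, was measured at 27.4, 34.4 and 44.6 RPKM in toxicant libraries (lowest, median and highest of 6), against 49.4, 44.8, 56.3, 57.5 and 60.4 RPKM in control libraries 1, 2, 3, 4-5 and 6. The groups did not overlap, although toxicant 5 (44.6 RPKM) and control 2 (44.8 RPKM) nearly met. The means were 35.0 ± 7.38 RPKM in toxicant libraries and 53.7 ± 6.40 RPKM in control libraries (SD, n = 6 and 5). On the log2(RPKM + 0.5) scale the difference was -0.63 ± 0.14 (SE), with a limma adjusted p of 0.164. Toxicants 1 to 3 lay at 27.4 to 29.2 RPKM and toxicants 4 to 6 at 39.6 to 44.6 RPKM. Complete separation with toxicant below control was seen in 2.03% of all tested genes, and 0.282% of them had a lower log2 difference than Hba-a2.

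Hba-a1, the other α-globin gene, was measured at 9.40, 11.3 and 13.0 RPKM in toxicant libraries (lowest, median and highest), against 12.7, 10.3, 20.6, 14.4 and 20.6 RPKM in control libraries in the same order. Controls 3 and 6 stood above every other library, and controls 1 and 2 lay within the toxicant range, so the groups overlapped. The means were 11.2 ± 1.24 RPKM in toxicant libraries and 15.7 ± 4.69 RPKM in control libraries. The log2 difference was -0.43 ± 0.17 (SE), with a limma adjusted p of 0.223.

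Hbb-bs, the more abundant β-globin gene, was measured at 27.4, 32.3 and 37.3 RPKM in toxicant libraries, against 41.7, 35.6, 49.1, 44.6 and 53.5 RPKM in control libraries. Toxicant 5 alone reached above control 2, and the other 5 toxicant libraries lay below every control. The means were 32.2 ± 3.57 RPKM in toxicant libraries and 44.9 ± 6.85 RPKM in control libraries. The log2 difference was -0.47 ± 0.11 (SE), with a limma adjusted p of 0.170.

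Hbb-bt, the less abundant β-globin gene, was measured at 3.66, 4.68 and 7.54 RPKM in toxicant libraries, against 7.28, 5.98, 6.73, 5.21 and 7.67 RPKM in control libraries. Of the toxicant libraries, 4 lay below every control, while toxicant 5 lay above all controls but control 6. The means were 5.04 ± 1.38 RPKM in toxicant libraries and 6.57 ± 0.994 RPKM in control libraries. The log2 difference was -0.37 ± 0.15 (SE), with a limma adjusted p of 0.230.

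Alas2, the erythroid haem synthesis enzyme, was measured at 0.264, 0.373 and 0.416 RPKM in toxicant libraries, against 0.338, 0.421, 0.384, 0.342 and 0.669 RPKM in control libraries. Control 6 stood apart at the top, and the other libraries of both groups overlapped. The means were 0.361 ± 0.0587 RPKM in toxicant libraries and 0.430 ± 0.137 RPKM in control libraries. Its mean was under the filter, so its log2 difference of -0.10 ± 0.09 (SE; adjusted p = 0.609) came from a limma fit of the 27660 genes above 0 in any library, which called 0 of them (0%). The added 0.5 understates differences at such low levels. Adding 0.1 instead gave Alas2 -0.18 (limma adjusted p = 0.620), and limma voom on recovered reads gave -0.24 (adjusted p = 0.592). Between 17 and 56 reads lay behind each value. The neighbouring DNA repair gene Apex2 is named because the genes overlap and share 12.1% of the 75-base words of the main Alas2 transcript. Apex2 averaged 0.507 ± 0.0677 RPKM in toxicant libraries and 0.374 ± 0.125 RPKM in control libraries. Its log2 difference was 0.21 ± 0.09 (SE; limma adjusted p = 0.389), and reads of the pair may not be separable because strand use in counting is not given.

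**Figure D1:**
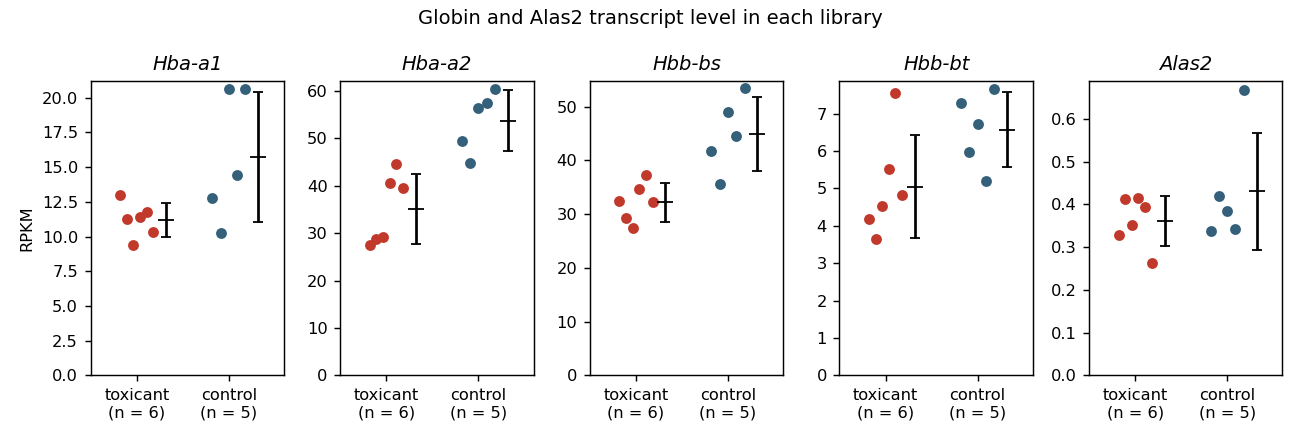
RPKM of the 5 genes in each library, toxicant (6) left of control (5), with 1 dot per library and the mean ± SD in black. Hba-a2 separated the groups, at 27.4 to 44.6 RPKM in toxicant and 44.8 to 60.4 RPKM in control libraries, and the other 4 genes overlapped.

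At an unadjusted p under 0.05, the 4 globins were each lower in toxicant libraries, as were 17.0% of all tested genes. The 4 passed the filter in both groups, and Alas2 did not pass it. A difference below 0 was common to 70.0% of tested genes, whose median log2 difference was -0.11, and 2.39% of genes had a difference as low as or lower than that of Hbb-bt. Dividing each library by its median ratio brought the median of all genes to -0.02 and gave -0.52 for Hba-a2, -0.36 for Hbb-bs, -0.32 for Hba-a1, -0.27 for Hbb-bt and -0.05 for Alas2. The globins lay 0.26 to 0.51 below the median gene on the deposited scale and 0.25 to 0.50 below it after that scaling, a gap that was not tested.

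Control 2 had the lowest summed globin level of the controls, 96.7 RPKM, and also their lowest share of reads on genes, 78.4%. Leaving out control 2 changed which globins passed, and the cause was not tested. Without it, limma gave -0.69 for Hba-a2 (adjusted p = 0.0228), -0.55 for Hbb-bs (0.0228) and -0.56 for Hba-a1 (0.0242), while Hbb-bt at -0.40 did not pass (0.0678). The same omission called 4929 genes, 36.5% of those tested. Sample weights, which put most of the control weight on control 6, gave all 5 genes an adjusted p under 0.05 along with 70.8% of those tested, with Hba-a1 at -0.84 and Alas2 at -0.38. Using all 12 libraries as deposited called 0.0741% of genes and no member. Adjusting for each library's gene-assigned read share, the difference of Hba-a1 was -0.22 (limma adjusted p = 0.602) and that of Hba-a2 -0.59 (limma adjusted p = 0.240).

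**Figure D2:**
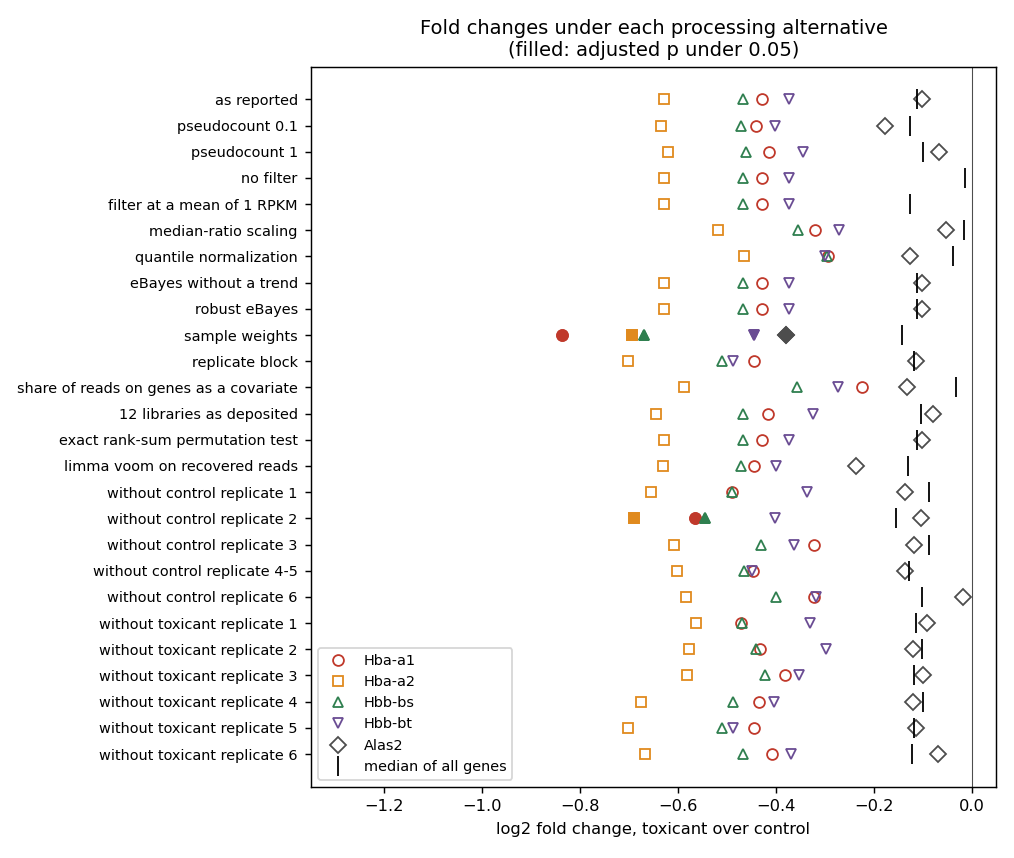
Log2 difference (toxicant minus control) of the 5 genes under each processing alternative, with filled symbols where the adjusted p was under 0.05 and black ticks at the median of all genes tested. The globins lay below 0 under every alternative plotted, although those that change only the test or the set of genes repeat the main differences. Filled symbols appear with sample weights and without control 2.

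Summed over both genes of a chain, α-globin RNA came to 38.6, 45.2 and 56.3 RPKM in toxicant libraries (lowest, median and highest), against 62.2, 55.1, 76.9, 71.9 and 81.0 RPKM in control libraries. The mean was 46.2 ± 7.45 RPKM in toxicant libraries and 69.4 ± 10.7 RPKM in control libraries, a ratio of 0.665. β-globin RNA came to 32.0, 36.8 and 44.8 RPKM in toxicant libraries, against 49.0, 41.6, 55.8, 49.8 and 61.1 RPKM in control libraries. Its mean was 37.2 ± 4.77 RPKM in toxicant libraries and 51.4 ± 7.40 RPKM in control libraries, a ratio of 0.724. For each chain, 5 of 6 toxicant libraries lay below every control, and toxicant 5 lay above control 2. These sums are a description and were not tested.

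The α and β chains followed each other across libraries (Pearson r = 0.975, permutation p = 1e-05; Spearman rho = 1.0, permutation p = 1e-05; n = 11). That p is the smallest that 100000 permutations can give, and its adjusted value over the 2 relations computed was 2e-05. Values of a library share its scale, which adds to any such correlation. After each group's mean was taken off, r was 0.931, and within the 6 toxicant libraries it was 0.917. Leaving out control 6 and toxicant 3, the farthest from the median, gave 0.962.

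**Figure D3:**
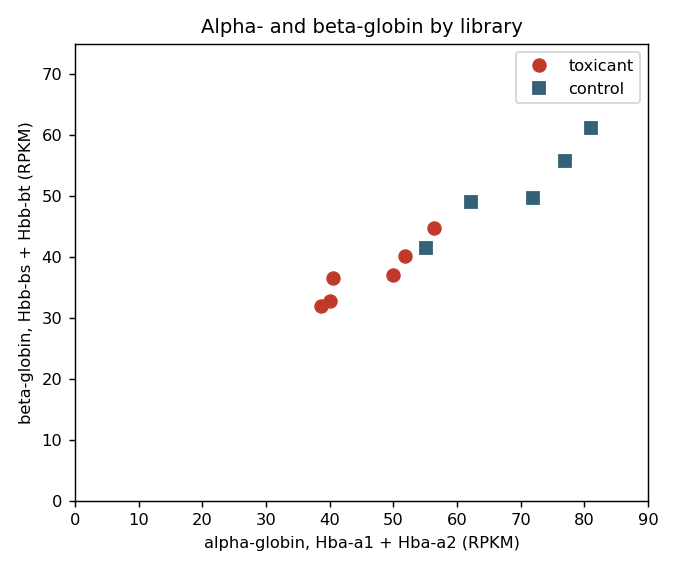
Summed β-globin RPKM against summed α-globin RPKM, with 1 point per library. The libraries keep the same order on both axes, and control 2 lies among the toxicant libraries.

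The ratio of α to β RNA was 1.24 ± 0.0822 in toxicant libraries (SD, n = 6) and 1.35 ± 0.0662 in control libraries (SD, n = 5). The log2 difference was -0.12, with an exact two-sided permutation p of 0.0390 over 462 splits and 0.117 after adjustment over the 3 ratios. Leaving out 1 library at a time gave -0.15 to -0.093, with adjusted exact permutation p of 0.0476 to 0.286. Of the 11 omissions only 1, that of toxicant 6 (-0.15, 0.0476), came under 0.05. The ratio of Hba-a1 to Hba-a2 was 0.333 ± 0.0851 in toxicant libraries and 0.289 ± 0.0607 in control libraries, which differed by 0.19 in log2 (exact permutation p = 0.359, adjusted 0.539). Toxicants 1 and 2 had the highest values of that ratio, 0.474 and 0.392. The ratio of Hbb-bs to Hbb-bt was 6.62 ± 1.13 in toxicant libraries and 6.90 ± 1.14 in control libraries, which differed by -0.06 in log2 (exact permutation p = 0.682, adjusted 0.682).

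On the RPKM scale, which is per length, levels ran Hba-a2, Hbb-bs, Hba-a1, Hbb-bt and Alas2 from high to low in 4 of 6 toxicant libraries and in 5 of 5 control libraries. In toxicants 1 and 2 Hbb-bs stood above Hba-a2, and in the other 9 libraries Hba-a2 stood above Hbb-bs. The other neighbours kept their order in 11 of 11 libraries. Alas2 RNA came to 0.440 ± 0.0907% of the summed globin RPKM in toxicant libraries and 0.356 ± 0.0897% in control libraries. Its level and that of the globins correlated at r = 0.469 (permutation p = 0.144, n = 11), with rho = 0.273 (permutation p = 0.419). Without controls 6 and 3, r was -0.0251, so what relation there was rests on those libraries.

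**Figure D4:**
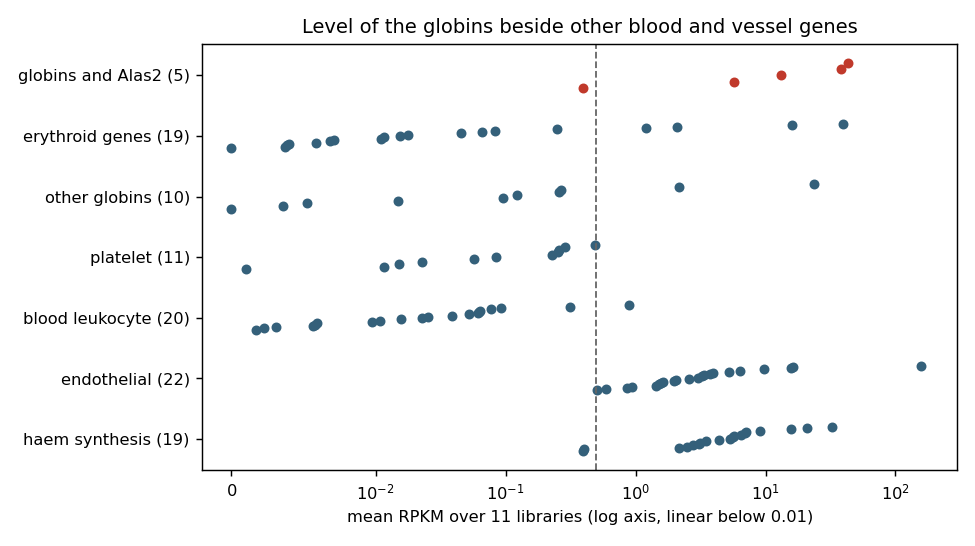
Mean RPKM over the 11 libraries of the 5 genes (red) and of lists of blood, vessel and haem synthesis genes (blue, 1 dot per gene), on an axis that is linear near 0 and logarithmic above. The dashed line marks the filter at 0.5 RPKM, with the 4 globins far above it and most erythroid genes close to 0.

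Other red cell genes were almost absent. Gata1, the master transcription factor of red cell precursors, had 0 reads in all 11 libraries, which allows up to 0.0573 RPKM in the shallowest library. Klf1, the activator of adult β-globin, had 1 to 7 reads per library, and Slc4a1, the band 3 anion exchanger of the red cell membrane, had 0 to 6. Epb42, protein 4.2 of the red cell membrane skeleton, had at most 2 reads in any library. Of 20 erythroid symbols 19 were found, and Ahsp, the chaperone of free α-globin, was not analysed here. Only 4 of the 19 passed the filter, Sptb, Tmcc2, Epor and Aqp1, and these are also used outside red cells, Aqp1 for example in the choroid plexus. All 4 were lower in toxicant libraries, as were 70.0% of all tested genes, and 0 passed the adjusted threshold. Their median log2 difference was -0.26, or -0.16 with median-ratio scaling and -0.063 with the read-share covariate. Sptb, a β-spectrin also present in neurons, averaged 14.4 ± 1.14 RPKM in toxicant libraries and 18.0 ± 3.05 RPKM in control libraries (-0.30 ± 0.11 SE).

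Among the other globin genes found, only Cygb and Ngb passed the filter. Hbq1a and Hbq1b averaged 0.257 and 0.269 RPKM over all libraries, and Adgb and Mb averaged 0.121 and 0.0952 RPKM. The embryonic genes Hba-x, Hbb-y and Hbb-bh1 had at most 2 reads in any library, and Hbb-bh2 had 0 reads throughout, which allows up to 0.250 RPKM in the shallowest library. The brain-expressed cytoglobin, Cygb, averaged 21.7 ± 2.76 RPKM in toxicant libraries and 25.8 ± 6.27 RPKM in control libraries, a log2 difference of -0.22 ± 0.15 (SE) that became 0.10 with the read-share covariate. Neuroglobin, Ngb, averaged 1.98 ± 0.960 RPKM in toxicant libraries and 2.36 ± 1.40 RPKM in control libraries. The log2 difference of Ngb was -0.11 ± 0.34 (SE), and it was 0.53 with that covariate.

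Of the 17 haem synthesis genes tested, 14 were lower in toxicant libraries and 3 higher, and 6 had an unadjusted p under 0.05 in the lower direction, against 70.0% and 17.0% of all tested genes. None passed the adjusted threshold. Their median log2 difference was -0.18, or -0.074 with median-ratio scaling and -0.015 with the read-share covariate. Alas1, the housekeeping counterpart of Alas2, averaged 5.89 ± 0.299 RPKM in toxicant libraries and 7.18 ± 1.18 RPKM in control libraries (-0.25 ± 0.10 SE, limma adjusted p = 0.223). Fech, which inserts iron into the ring, averaged 2.95 ± 0.148 RPKM in toxicant libraries and 3.36 ± 0.174 RPKM in control libraries. Fech had a log2 difference of -0.16 ± 0.06 (SE), with all 6 toxicant libraries below all controls. It was the only 1 of the 17 to separate so, against 2.03% of all tested genes.

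For haem breakdown and iron handling, 16 of 19 tested genes were lower in toxicant libraries and 3 higher, and 5 had an unadjusted p under 0.05 in the lower direction, against 70.0% and 17.0% of all tested genes. None passed the adjusted threshold. The median was -0.19, or -0.085 with median-ratio scaling, -0.065 after quantile normalization and -0.080 with the read-share covariate. Trf (transferrin), which oligodendrocytes also make, had the log2 difference -0.50 ± 0.14 (SE), and Fth1, a ferritin subunit, -0.38 ± 0.11 (SE). Hmox1, the inducible enzyme that degrades haem, averaged 1.67 ± 0.201 RPKM in toxicant libraries and 1.72 ± 0.197 RPKM in control libraries. Its log2 difference of -0.03 ± 0.09 (SE) was 0.06 after median-ratio scaling.

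Genes that red cells share with brain cells were tested in 19 cases, of which 17 were lower in toxicant libraries and 2 higher, and 9 had an unadjusted p under 0.05 in the lower direction, against 70.0% and 17.0% of all tested genes. None passed the adjusted threshold. The median was -0.22, or -0.13 with median-ratio scaling, -0.079 after quantile normalization and -0.045 with the read-share covariate. Bpgm, which makes the regulator of oxygen release 2,3-bisphosphoglycerate, averaged 9.51 ± 0.781 RPKM in toxicant libraries and 11.5 ± 1.85 RPKM in control libraries (-0.25 ± 0.11 SE). Car2, carbonic anhydrase 2 of red cells and oligodendrocytes, had -0.37 ± 0.08 (SE), with all toxicant libraries below all controls. It was 1 of 4 among the 19 that separated so, against 2.03% of all tested genes. Among hypoxia-response genes, 14 of 17 tested were lower and 3 higher, 3 had an unadjusted p under 0.05 in the lower direction and 0 passed, shares near the 70.0% and 17.0% of all tested genes. Their median was -0.13, near that of all genes, -0.11.

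**Figure D5:**
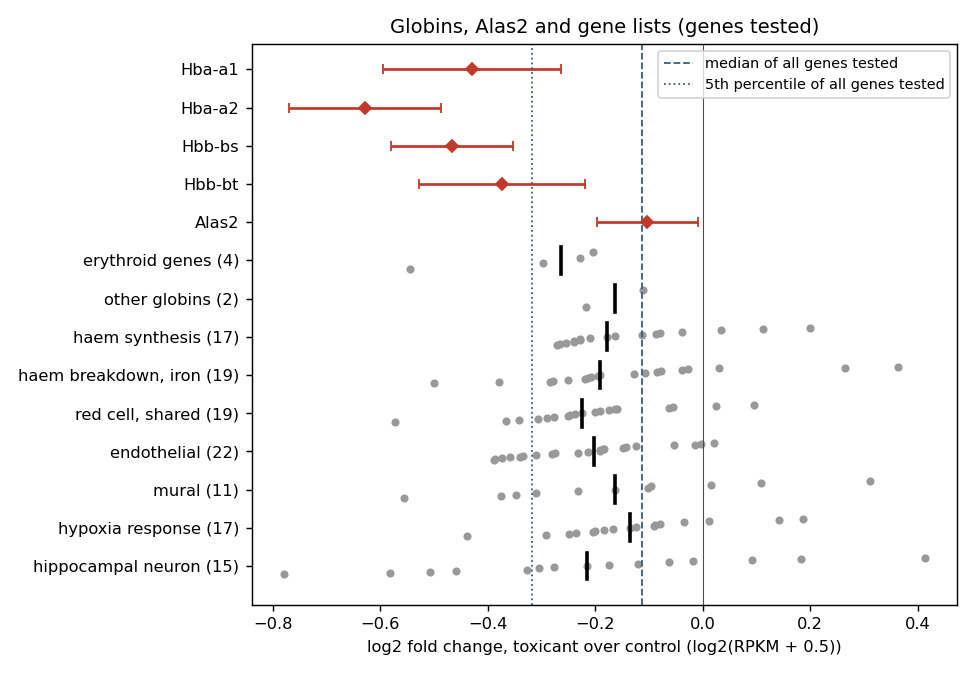
Log2 difference (toxicant minus control) of the 5 genes (diamonds ± SE) and of the tested genes of each list (grey dots, with black ticks at list medians). The dashed line is the median of all 13493 genes, -0.11, and the dotted line their 5th percentile, -0.32, with the 4 globins below it.

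Markers of vessels and of other blood cells were read beside the globins. All 22 endothelial genes were tested, 21 were lower in toxicant libraries and 1 higher, and 11 had an unadjusted p under 0.05 in the lower direction, against 70.0% and 17.0% of all tested genes. None passed the adjusted threshold. The median was -0.20, or -0.12 after median-ratio scaling, -0.18 after quantile normalization and -0.25 with the read-share covariate. With a pseudocount of 0.1 it was -0.26, where the median of all tested genes was -0.13. They summed to 193 to 235 RPKM in toxicant libraries and 216 to 325 RPKM in control libraries. Pecam1, an adhesion protein of endothelial junctions, averaged 1.20 ± 0.126 RPKM in toxicant libraries and 1.73 ± 0.149 RPKM in control libraries (-0.39 ± 0.08 SE, limma adjusted p = 0.153), and 7 of the 22 separated the groups completely with toxicant below control, against 2.03% of all tested genes. Within groups, the deviations of Pecam1 and of the globins correlated at r = -0.208 over 11 libraries. For the other endothelial genes picked by the naming rule, r was -0.273 (Cldn5), -0.247 (Itm2a), -0.111 (Cdh5), 0.121 (Eng) and 0.367 (Bsg). The mural list, of pericytes and smooth muscle, summed to 34.3 to 42.0 RPKM in toxicant libraries and 41.7 to 46.3 RPKM in control libraries. Of its 11 genes tested, 8 were lower and 3 higher, against 70.0% of all tested genes lower. In the lower direction 5 had an unadjusted p under 0.05, against 17.0% of all tested genes, and none passed the adjusted threshold. The mural median was -0.16, or -0.10 after median-ratio scaling, -0.16 after quantile normalization and -0.14 with the read-share covariate. With a pseudocount of 0.1 the mural median was -0.26. Among the mural genes picked by the naming rule, r with the globins ran from -0.357 (Rgs5) to 0.558 (Vtn). None of the 11 platelet genes passed the filter, and they summed to 1.30 to 1.72 RPKM in toxicant libraries and 1.45 to 2.81 RPKM in control libraries. The 20 leukocyte genes summed to 1.66 to 2.08 RPKM in toxicant libraries and 1.56 to 2.08 RPKM in control libraries. The choroid plexus list summed to 16.3 to 1826 RPKM in toxicant libraries and 18.3 to 2916 RPKM in control libraries, and 10 of its 11 tested genes were lower and 1 higher, with a median of -0.51. Its sums rest on single libraries, since Ttr (transthyretin) was at 1764 RPKM in toxicant 2, 2836 RPKM in control 3 and 629 RPKM in control 4-5, against 12.9 to 99.1 RPKM in the others. Genes of hippocampal neurons were lower too, in 12 of 15, with 7 at an unadjusted p under 0.05 in the lower direction and a median of -0.22. Among them Lct averaged 3.78 ± 1.23 RPKM in toxicant libraries and 6.63 ± 1.04 RPKM in control libraries (-0.78 ± 0.19 SE), a lower log2 difference than that of any globin. The part of vessels, blood, choroid plexus and neurons in the globin difference was not tested.

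Likeness to the globins was measured as Pearson r between a gene's deviations from its group means and the mean deviation of the 4 globins over the 11 libraries. Hbb-bs itself had r = 0.968, Hba-a2 0.845, Hbb-bt 0.770 and Hba-a1 0.743, each being part of that mean, while Alas2 had 0.409. The 10 most alike of the other tested genes ran from r = 0.907 for the non-coding 1700101I11Rik to 0.837 for Eef2k, the kinase of elongation factor 2. Between them were the ribosomal RNA genes n-R5-8s1 (0.900) and Gm24601 (0.883), the oligodendrocyte precursor receptor Pdgfra (0.890) and the neuropeptide gene Cort (0.878). Between the groups the ribosomal RNA genes stood the other way round from the globins. The level of n-R5-8s1 was 2712 ± 983 RPKM in toxicant libraries and 1697 ± 734 RPKM in control libraries, and that of Gm24601 was 27.9 ± 7.89 RPKM in toxicant libraries and 15.1 ± 5.17 RPKM in control libraries, with neither past the adjusted threshold in limma. In these poly(A)-selected libraries the part of that difference in the globin result was not tested. Plekhf1, Magee2, Gm20498 and Cdk20 completed the 10, with r of 0.842 to 0.873. These values describe 11 libraries that share their scale, out of 13493 genes.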

How the data were processed

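RNA-seq of 12 hippocampi was deposited as 1 table of RPKM values for 41743 genes. RPKM was computed by the authors; per the labels' protocols the libraries were poly(A)-selected and sequenced as 75-base single reads, and the aligner, annotation, strand setting and handling of multiply mapped reads were not given there. Groups came from the sample titles. The identical columns of controls 4 and 5 were used once. Values were taken as log2(RPKM + 0.5), which understates differences of low genes, and genes with a mean under 0.5 RPKM over 11 libraries were left out. Toxicant was compared with control in limma 3.58.1 (R 4.3.3; empirical Bayes with a trend) with Benjamini-Hochberg adjustment at 0.05 over the 13493 genes kept; the procedure was tested on simulated data. Reads were recovered from the RPKM steps and GENCODE M21 exon lengths (41675 gene IDs matched). Ratios used exact permutation over libraries, and correlations 100000 permutations (Python 3.11.15). Promoters of all 5 genes came from RefSeq. Named genes were the 5 members, in each list the 3 with the smallest unadjusted p and the 3 with the highest mean RPKM, 20 fixed symbols, and the 10 most like the globins. Members and lists were chosen with earlier results of these data known. Alternatives covered the pseudocount, filter, scaling, weights, covariate, test and each library left out. Some genes of the lists are not reported here by name.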

Additional observations from a re-analysis of the deposited data

Results flagged for a closer look

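Alas2 in control 6 stood apart from the other 4 control libraries, at 0.669 RPKM against 0.338 to 0.421 RPKM, by a gap of 0.750 of the control range, above Dixon's critical value for 5 samples. The value rests on 56 reads. The 4 globins of control 6 were not set apart in this way, although Hba-a2, Hbb-bs and Hbb-bt had their highest level there. Of 20 groups of values examined 1 met this criterion, and chance gives about 1 in 20. Without control 6 the log2 difference of Alas2 was -0.02.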

How the results depend on the processing

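The 4 globins kept a log2 difference below 0 in 100 of 100 values under the alternatives, and 7 of these passed the adjusted threshold. These values are not all separate results. Alternatives that changed only the test or the set of genes repeat the main differences, and the replicate block repeats those without toxicant 5. With sample weights, which gave control 6 84.1% of the control weight, limma called 9553 genes (70.8%), and the members stood at -0.84 (Hba-a1), -0.69 (Hba-a2), -0.67 (Hbb-bs), -0.44 (Hbb-bt) and -0.38 (Alas2). A pseudocount of 0.1 called 1 gene, the 12 libraries as deposited called 10, and leaving out 1 library called 0 to 4929, the highest without control 2. The cause of these changes was not tested. Leaving out 1 library gave -0.56 to -0.32 for Hba-a1, -0.70 to -0.56 for Hba-a2, -0.55 to -0.40 for Hbb-bs, -0.49 to -0.30 for Hbb-bt and -0.14 to -0.02 for Alas2. It gave log2 ratio differences of 0.08 to 0.28 for Hba-a1 to Hba-a2, -0.13 to 0.02 for Hbb-bs to Hbb-bt and -0.15 to -0.093 for α to β. The Hbb-bs to Hbb-bt ratio turned to 0.0186 without control 4-5 and 0.0170 without toxicant 5. The correlation of globins with Alas2 turned to -0.0251 without controls 6 and 3.

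Deviations of same-numbered toxicant and control libraries correlated at r of 0.624, 0.277, -0.298, 0.323 and 0.272 for replicates 1, 2, 3, 4 and 6. Differently numbered libraries were not compared, so whether the numbers pair the libraries was not tested. With the replicate number as a block, limma called 0 genes, Hba-a2 stood at -0.70 (adjusted p = 0.0744), and the Hbb-bs to Hbb-bt ratio turned to 0.0170. The shared column of controls 4 and 5 was counted as replicate 4, although which animal it belongs to is not known. Toxicant 5 thus had no control in its block and did not add to the difference. The block values of Hba-a2 and of that ratio are those without toxicant 5, so they say nothing separate about pairing. Adjusting for each library's gene-assigned read share, direction turned for Tmcc2 (0.074), Cygb (0.10), Ngb (0.53), Hmox1 (0.11), Tfrc (-0.11) and the median of the other globins (0.31). Median-ratio scaling turned Hmox1 to 0.060, leaving out toxicant 4 turned it to 0.0026, and Ngb turned to 0.10 without control 1 and 0.039 without control 6. Leaving out 1 library gave -0.42 to 0.10 for Ngb and -0.085 to 0.0026 for Hmox1. Alas2 rests on 17 to 56 reads a library.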
